A study of Rattus norvegicus with 32 samples.

Results

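The mitochondrial solute carriers of the SLC25 family were followed in the left ventricle of septic rats, with and without landiolol. Members were all array probes whose gene name began with Slc25a and a number or was Ucp1, Ucp2 or Ucp3, in either of the annotation versions of the scanner files, which gave 75 of 45598 probes and 48 genes. The brightest probe stood for each gene. Wistar rats, young adults of both sexes, underwent sham surgery or cecal ligation and puncture (CLP), a model of abdominal sepsis in which bowel content leaks into the peritoneum. After CLP the animals received either saline (CLP group) or landiolol, a short-acting cardioselective beta-blocker, diluted in saline (CLP plus landiolol group), and the volume infused was similar in all groups. All rats had buprenorphine before surgery, then cardiac magnetic resonance imaging and an ex vivo measurement on the isolated perfused heart, and the ventricle was collected at 20 h. Each sex had 5 sham, 5 CLP and 6 CLP plus landiolol arrays, 1 per rat. Hearts not frozen because of handling problems and RNA samples too low in quality or quantity had been left out. The groups therefore hold the hearts that passed that selection.

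SLC25 carriers are small proteins that sit, with few exceptions, in the inner mitochondrial membrane and exchange nucleotides, phosphate, carboxylates, amino acids, cofactors and carnitine esters between the cytosol and the matrix. In heart muscle the adenine nucleotide and phosphate carriers export ATP and import the substrates for making it, while the carnitine carrier brings in fatty acids for oxidation. The uncoupling proteins belong to the same family. Ucp3 is found mainly in muscle and heart, where fatty acids are known to raise its expression, and Ucp2 is broadly expressed, including in immune cells.

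Promoters are shown for 4 genes that the results turn on. They include Ucp3, with the largest fall after CLP, and its chromosomal neighbour Ucp2. The others are Slc25a14, called higher after CLP in females only, and Slc25a42, called lower after CLP in males only. RefSeq promoter windows of the GRCr8 build were matched for 41 of the 48 genes. Each sequence is the 250 bases before the annotated start, 5′ to 3′ on the strand of the gene, which is the plus strand for all 4. They lie at chr1:164227660-164227909 for Ucp3, chr1:164251123-164251372 for Ucp2, chrX:132685359-132685608 for Slc25a14 and chr16:19247724-19247973 for Slc25a42. Capitals mark AGGTCA, the core motif of nuclear receptors such as the PPARs, or CCGGAAG, a motif of ETS factors such as GABPA, on either strand.
Ucp3: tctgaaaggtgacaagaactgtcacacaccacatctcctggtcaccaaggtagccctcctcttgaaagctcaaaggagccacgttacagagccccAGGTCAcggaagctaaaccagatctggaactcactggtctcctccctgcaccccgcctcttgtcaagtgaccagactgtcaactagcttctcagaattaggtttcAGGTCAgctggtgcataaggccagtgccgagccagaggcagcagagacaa
Ucp2: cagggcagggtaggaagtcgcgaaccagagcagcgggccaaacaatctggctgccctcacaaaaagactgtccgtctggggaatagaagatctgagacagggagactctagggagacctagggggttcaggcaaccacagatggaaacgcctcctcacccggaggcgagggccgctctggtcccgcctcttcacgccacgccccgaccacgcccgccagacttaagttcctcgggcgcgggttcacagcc
Slc25a14: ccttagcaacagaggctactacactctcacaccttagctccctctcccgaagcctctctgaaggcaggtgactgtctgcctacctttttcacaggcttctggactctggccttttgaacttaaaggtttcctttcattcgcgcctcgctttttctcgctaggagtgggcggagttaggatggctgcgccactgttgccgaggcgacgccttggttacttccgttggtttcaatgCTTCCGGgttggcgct
Slc25a42: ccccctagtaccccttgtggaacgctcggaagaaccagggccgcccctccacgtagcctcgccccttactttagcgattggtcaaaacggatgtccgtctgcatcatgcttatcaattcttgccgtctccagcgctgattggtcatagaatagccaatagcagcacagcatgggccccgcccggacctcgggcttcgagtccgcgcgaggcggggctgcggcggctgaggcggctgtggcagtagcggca
The Ucp3 window held AGGTCA at 155 to 150 and again at 50 to 45 bases before the start. In windows of 300 bases, which include the first 50 bases after the start, AGGTCA was found in 7 of the 41 carrier promoters (17.1%) and in 15.7% of all 27457 promoters, and at least 2 copies were found in 2 of the 41 and in 1.71% of all promoters. The CCGGAAG motif of Slc25a14 lay on the minus strand at 16 to 10 bases before the start. It was found in 7 carrier promoters (17.1%), among them those of Slc25a3, Slc25a4, Slc25a20 and Slc25a38, and in 9.22% of all promoters. The longer motif TNAAGGTCA of the oestrogen-related receptors, which overlaps AGGTCA, was in 0 of the 41 and in 1.15% of all. No capital appears in the Ucp2 and Slc25a42 windows. These matches describe the letters and show no binding.

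Each of the 32 arrays carried 1 RNA sample in 1 colour, with 34920 to 43155 non-control spots well above background, and the number of arrays limits the precision. The median signal before normalisation ran from 49.16 to 158.4. Values are log2 intensities, quantile-normalised within each sex, and are not compared between probes or between the sexes, since males and females were on different slides. Sex differences in the change were fitted on all 32 arrays normalised together, so they need not equal the gap between the within-sex changes. The arrays least like the rest of their group were female CLP replicate 5 (mean correlation 0.97) and female CLP replicate 2 (0.971). The heart muscle markers were all measured and 0 of 9 were called by limma in any comparison (1 in each sex at an unadjusted p under 0.05 after CLP), with a median log2 change of -0.02 in males and 0.02 in females after CLP. Other cell markers moved with the groups. For neutrophils 2 of 8 markers were above background, S100a8 and S100a9, and their mean log2 level was 3.02 to 3.82 in male sham, 5.64 to 8.52 in male CLP and 6.87 to 8.67 in male CLP plus landiolol arrays. In females it was 2.64 to 4.5, 5.87 to 7.62 and 6.27 to 9.05, and the defining markers Mpo, Mmp8, Csf3r, Cxcr2, Camp and Ngp were not above background in enough arrays of either sex. For macrophages and monocytes 7 of 8 were tested and 3 were higher after CLP in each sex, with a mean log2 level of 9.2 to 9.79 in male sham and 10.01 to 10.9 in male CLP and 9.57 to 10.77 in male CLP plus landiolol arrays. In females it was 9.19 to 9.85, 9.75 to 10.49 and 10.28 to 10.83. Of 5 fibroblast markers 3 were lower after CLP in males (mean log2 level 12.33 to 13.09 in sham, 11.25 to 12.22 in CLP, 11.66 to 12.47 with landiolol) and 0 in females (11.99 to 12.62, 10.68 to 12.35 and 11.15 to 12.12). By limma 5 fibroblast markers in males and 4 in females had an unadjusted p under 0.05 after CLP, with median log2 changes of -1.34 and -0.95. Of 5 endothelial markers 0 were called after CLP. Of 7 adipocyte markers 2 were measured, Cidea and Dio2, and 1 was higher in males. The adipocyte markers Adipoq, Plin1, Cidec, Lep and Elovl3 were not above background in enough arrays of either sex. Of 8 erythroid markers 4 were tested in males and 5 in females, and 1 was lower in each sex. The median log2 change of the erythroid markers after CLP was -0.02 in males and 1.65 in females. Their mean log2 level in females was 6.95 to 7.98 in sham and 5.95 to 11.87 in CLP arrays. The part of these cell markers in the results was not tested, and in whole tissue fewer cells of a type cannot be told apart from less RNA per cell.

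After CLP a few carriers were clearly lower, and the major energy carriers were not called. In males 5 of the 40 genes tested were called (12.5%), all lower, among them Ucp3, Slc25a42, Slc25a46 and Slc25a36. Called means a limma p adjusted by Benjamini-Hochberg over all probes of the sex at an FDR of 1%, the level used for comparisons with sham, and 7.81% of all male probes were called (3.94% lower, 3.88% higher). In females 4 of 39 were called (10.3%, against 3.63% of all probes, 1.82% in each direction): Ucp3, Slc25a26 and Slc25a45 were lower and Slc25a14 was higher. The CLP and sham values did not overlap for 8 carriers in males, where 12.3% of all probes did not overlap, and for 10 in females, where 8.32% did not. At an unadjusted p under 0.05 there were 19 carriers in males and 16 in females, where 28.8% and 23.1% of all probes passed. The median log2 change over the carriers was -0.02 in males, with 20 genes below 0 and 20 above, and -0.11 in females, beside 0.009 and -0.015 over all probes. Without male sham replicate 4 or male CLP replicate 4 the male count was 3. The female count was 0 without female sham replicate 1 or 2, 1 without CLP replicate 3 or 4, and 2 without sham replicate 3 or 4 or CLP replicate 1.

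**Figure D1:**
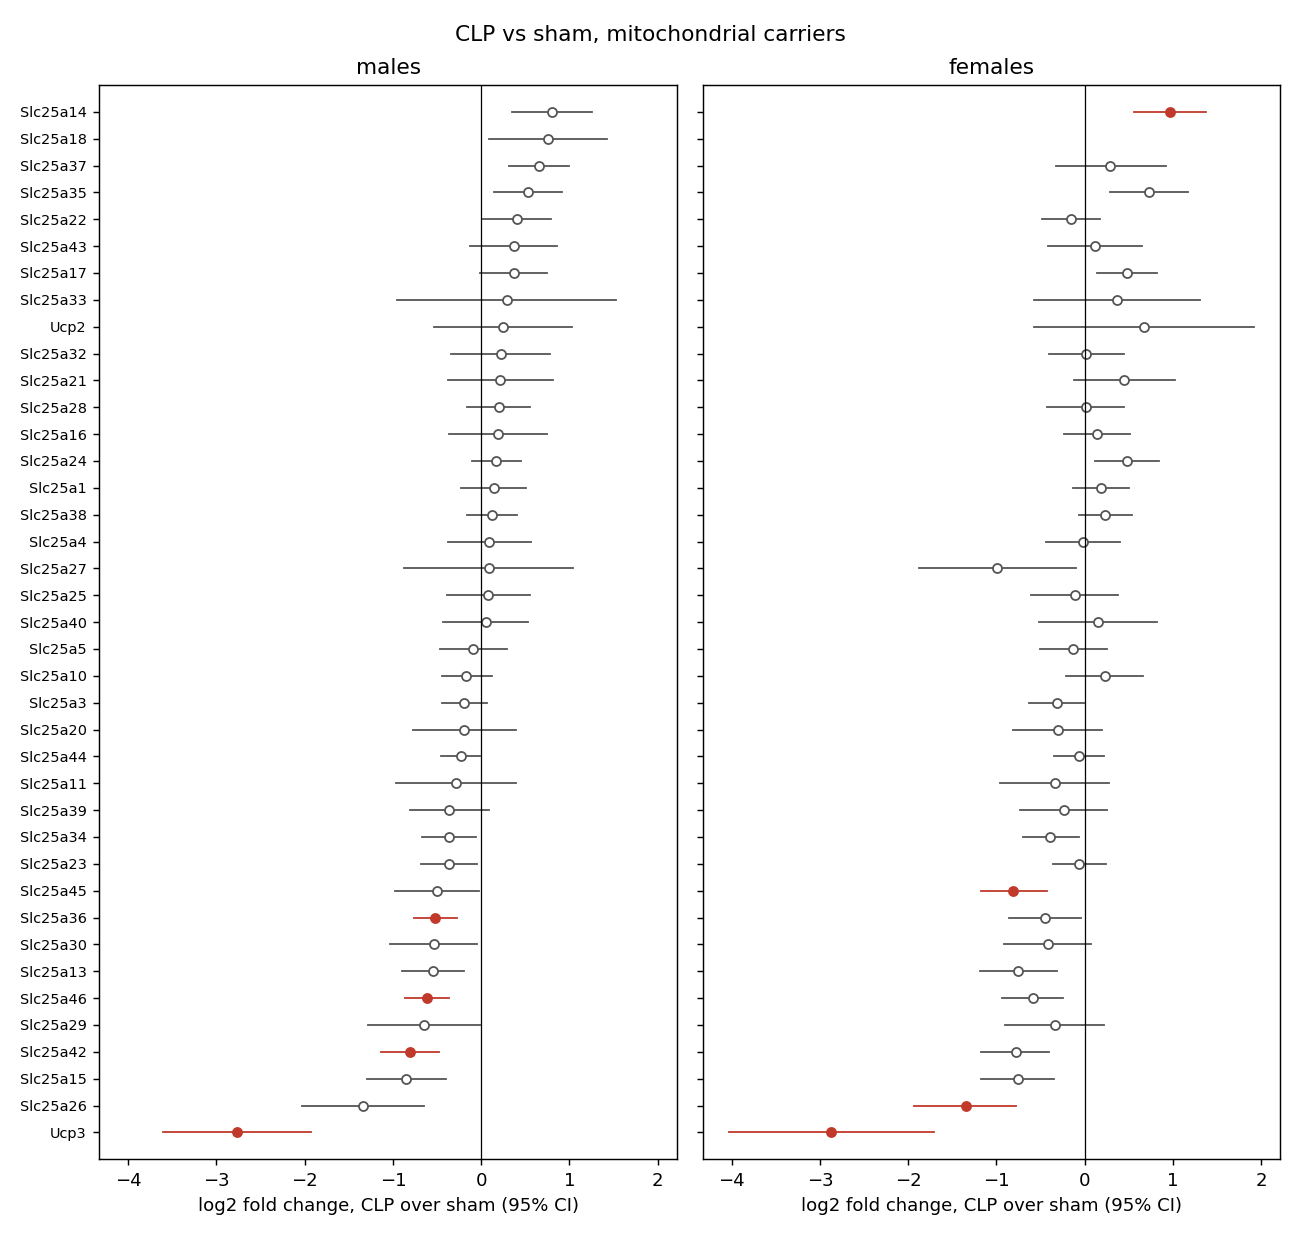
Log2 fold change of CLP over sham for each carrier described, males on the left and females on the right, with points for the estimate, bars for the 95% confidence interval and filled red points for called genes. Ucp3 lies far to the left in both sexes, at -2.77 and -2.87, and Slc25a14 is at the top, at 0.80 and 0.97.

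Ucp3 showed the largest fall of the family in both sexes. The Ucp3 probe (chr1:157909519-157909578, rn4 build) read 9.94, 10.34, 9.72, 10.8 and 10.35 in male sham and 7.95, 8.43, 7.28, 5.83 and 7.82 in male CLP arrays. In females it read 10.63, 11, 10.50, 10.47 and 9.13 in sham and 8.43, 8.57, 6.87, 7.84 and 5.68 in CLP arrays. Every CLP array was below every sham array of its sex, and the lowest value of each sex was a CLP array. Ucp3 was 6.81-fold lower in males (log2 change -2.77 ± 0.39 SE, limma adjusted p = 0.000245) and 7.32-fold lower in females (-2.87 ± 0.55, adjusted p = 0.0037). The change was -2.25 and -3.46 on the 2 male slides and -1.88 and -3.75 on the 2 female slides. The male call held in all 23 other settings tried, while the female call was lost in 6 of 23, among them the fit with a term for slide row.

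Ucp2, whose probe lies 17550 bases from the Ucp3 probe on chromosome 1 (rn4), was not called. In males it read 10.65, 11.89, 11.23, 11.66 and 11.52 in sham and 10.72, 11.95, 12.27, 11.52 and 11.73 in CLP arrays, and the groups overlapped. In females it read 12.28, 12.03, 11.59, 12.77 and 11.77 in sham and 11.88, 14.04, 13.54, 13.62 and 10.74 in CLP arrays, so that 3 CLP arrays lay above and 1 below every sham array. The log2 change was 0.25 ± 0.37 in males and 0.67 ± 0.59 in females (adjusted p = 0.73 and 0.548), and in females it was 1.95 on one slide and -0.35 on the other. Ucp1, the uncoupling protein of brown fat, was well above background on 1 of the 32 arrays and was not tested.

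Slc25a14, also named UCP5 or brain mitochondrial carrier protein, went the other way. Its probe (chrX:135073690-135073749, rn4) read 8.99, 9.5, 9.59, 9.69 and 9.98 in female sham and 10.47, 10.44, 10.43, 10.65 and 10.59 in female CLP arrays, with no overlap. In males it read 9.92, 9.1, 9.29, 9.43 and 9.73 in sham and 10.74, 10.2, 10.58, 10.18 and 9.79 in CLP arrays, where 1 CLP array lay below the highest sham array. The log2 change was 0.97 ± 0.19 in females (adjusted p = 0.00456) and 0.80 ± 0.22 in males (adjusted p = 0.0181, not called), and 7 of 23 other settings ended the female call. Slc25a30, the kidney mitochondrial carrier protein and its close relative, was at -0.54 ± 0.23 in males and -0.42 ± 0.23 in females, and neither was called.

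**Figure D2:**
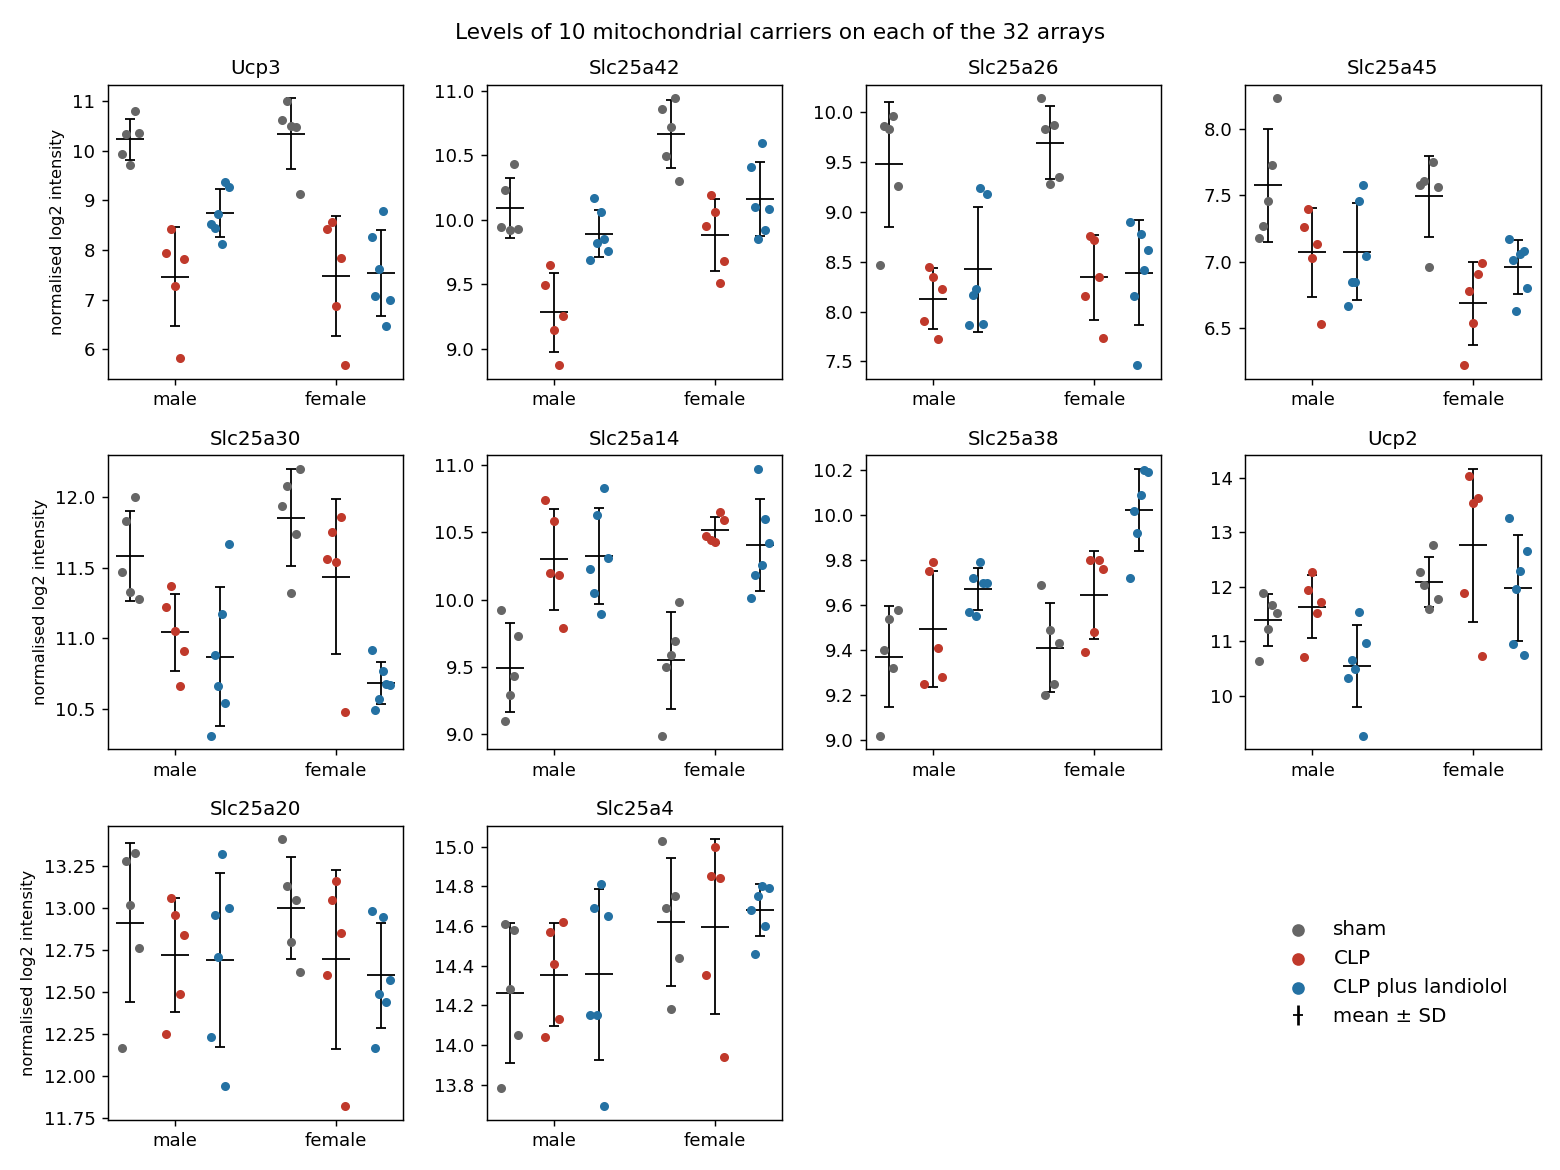
Normalised log2 intensity of 10 carriers on each of the 32 arrays, by sex and group, with 1 point per array, bars at the mean ± SD, and a separate vertical scale in each panel that does not start at 0. Ucp3 and Slc25a26 are lower and Slc25a14 is higher after CLP, while the groups of Slc25a4 and Slc25a20 overlap.

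Among the carriers of nucleotides, phosphate and cofactors, 3 of 13 were lower in males and 0 of 13 were called in females by limma or SAM (6 at an unadjusted p under 0.05), with medians of 0.08 and -0.06. Among the 3 were Slc25a42, which imports coenzyme A, and Slc25a36, a carrier of pyrimidine nucleotides. Slc25a42 (chr16:19719942-19720001, rn4) read 9.94, 10.23, 9.92, 10.43 and 9.93 in male sham and 9.49, 9.65, 9.14, 8.87 and 9.25 in male CLP arrays. In females it read 10.86, 10.49, 10.72, 10.94 and 10.3 in sham and 9.95, 10.19, 10.06, 9.51 and 9.68 in CLP arrays. Sham arrays were above CLP arrays without exception in both sexes. The log2 change was -0.81 ± 0.16 in males (adjusted p = 0.00244) and -0.78 ± 0.18 in females (adjusted p = 0.0124, not called), and a second probe was at -0.87 in males (adjusted p = 0.12). Slc25a36 was at -0.52 ± 0.11 in males (adjusted p = 0.00558) and -0.45 ± 0.19 in females (adjusted p = 0.165). Its other probes were at -0.22 and -0.34 in males (adjusted p = 0.539 and 0.493), so the call rests on 1 probe of 3. Of the 23 other settings, 1 ended the male call of Slc25a42 and 7 that of Slc25a36.

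The carriers that heart muscle uses most for ATP and fuel were not called after CLP. Slc25a4, the adenine nucleotide translocator of heart and skeletal muscle (chr16:49357074-49357133, rn4), read 13.78, 14.61, 14.28, 14.58 and 14.05 in male sham and 14.04, 14.57, 14.41, 14.13 and 14.62 in male CLP arrays. In females it read 15.03, 14.69, 14.18, 14.75 and 14.44 in sham and 14.35, 14.85, 15, 14.84 and 13.94 in CLP arrays. The groups overlapped in both sexes, with a log2 change of 0.09 ± 0.22 in males (95% interval -0.38 to 0.56) and -0.02 ± 0.20 in females (-0.44 to 0.40). Slc25a5, a second translocator, was at -0.09 ± 0.18 and -0.13 ± 0.18. Slc25a3, which brings phosphate into the matrix, was at -0.19 ± 0.12 and -0.32 ± 0.15 (adjusted p = 0.354 and 0.199). The carboxylate carriers, which move citrate, malate and oxoglutarate, were 4 genes with 0 called by limma or SAM and 0 at an unadjusted p under 0.05 in either sex, and Slc25a11, the oxoglutarate carrier of the malate-aspartate shuttle, was at -0.29 ± 0.32 and -0.34 ± 0.29. Slc25a12, the aspartate-glutamate carrier of that shuttle in heart, had no probe of that name among those read here.

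Slc25a20, the carnitine-acylcarnitine carrier through which long-chain fatty acids enter the matrix (chr8:113736281-113736339, rn4), read 12.17, 13.28, 13.02, 13.33 and 12.76 in male sham and 12.25, 13.06, 12.96, 12.49 and 12.84 in male CLP arrays. In females it read 13.41, 13.13, 12.8, 13.05 and 12.62 in sham and 12.6, 13.05, 13.16, 12.85 and 11.82 in CLP arrays. The groups overlapped, and the log2 change was -0.19 ± 0.27 in males (-0.77 to 0.39) and -0.30 ± 0.24 in females (-0.81 to 0.20).

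The carriers of amino acids and related compounds had medians of -0.39 over 8 genes in males and -0.34 over 7 in females, with estimates below 0 for 5 and 6 of them. Slc25a26 was called in females, and 0 were called in males by limma (7 at an unadjusted p under 0.05, and 1 by SAM, Slc25a26). In females 3 had an unadjusted p under 0.05, and SAM called 2, Slc25a13 and Slc25a26. Slc25a18, a glutamate carrier, was 1 of the 7 in males, at 0.76 ± 0.32. It was well above background on 3 of 5 sham, 5 of 5 CLP and 3 of 6 CLP plus landiolol arrays, so it was tested only because of the CLP group in which it was high, and its difference is no evidence. Slc25a26 imports S-adenosylmethionine, the methyl donor. Its probe (chr4:128917770-128917829, rn4) read 10.14, 9.83, 9.28, 9.87 and 9.35 in female sham and 8.16, 8.76, 8.72, 8.35 and 7.73 in female CLP arrays. In males it read 8.47, 9.86, 9.83, 9.96 and 9.26 in sham and 7.9, 8.45, 8.35, 7.72 and 8.23 in CLP arrays. No values overlapped, and in males the lowest sham array was 0.02 above the highest CLP array. The log2 change was -1.35 ± 0.27 in females (adjusted p = 0.00531) and -1.34 ± 0.32 in males (adjusted p = 0.0102, just above the 1% level). Of 23 other settings, 8 ended the female call and 8 gave a male call, among them the FDR of 5%, which left the male adjusted p at 0.0102. Slc25a15, the ornithine carrier, was at -0.85 ± 0.21 in males and -0.76 ± 0.19 in females (adjusted p = 0.0121 and 0.0214). A second Slc25a15 probe was called in females (-1.02, adjusted p = 0.00426). Slc25a13, the aspartate-glutamate carrier citrin, was at -0.55 ± 0.16 in males and -0.76 ± 0.20 in females (adjusted p = 0.0323 and 0.0287), and in females its CLP arrays did not overlap sham. A second Slc25a13 probe was at -0.34 and -0.78 and was not called.

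Of the 5 carriers with no settled substrate or another role, 1 was called in each sex. Slc25a46, an outer membrane member linked to mitochondrial shape, was at -0.61 ± 0.12 in males (adjusted p = 0.00255) and -0.59 ± 0.16 in females (adjusted p = 0.0316, not called), and its groups did not overlap in either sex. Slc25a45 (chr1:208519742-208519801, rn4) read 7.58, 7.61, 6.96, 7.75 and 7.56 in female sham and 6.22, 6.78, 6.54, 6.91 and 6.99 in female CLP arrays, with 1 sham array inside the CLP range. In males it read 7.18, 7.27, 7.46, 7.73 and 8.23 in sham and 7.26, 7.4, 7.03, 7.13 and 6.53 in CLP arrays, and the groups overlapped. The log2 change was -0.81 ± 0.18 in females (adjusted p = 0.00962) and -0.50 ± 0.23 in males (adjusted p = 0.158). The Slc25a45 call was lost in 15 of the 23 other settings.

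The 4 carriers of iron and glutathione gave 0 calls by limma and SAM in both sexes, with 1 at an unadjusted p under 0.05 in males and 0 in females. Slc25a37 (mitoferrin-1), which brings iron into mitochondria, was 0.66 ± 0.16 higher on the log2 scale in male CLP arrays with no overlap (adjusted p = 0.0115, not called) and was at 0.29 ± 0.30 in females (adjusted p = 0.617). Slc25a28 (mitoferrin-2) was at 0.20 ± 0.17 and 0.01 ± 0.20.

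The changes after CLP ran alike in the 2 sexes, which are different animals on different slides. Of the 39 carriers tested in both, 34 had the same sign (87.2%, against 76.4% of 24769 probes), with a Pearson correlation across genes of 0.91, or 0.85 without Ucp3, beside 0.78 over all probes. Genes are not independent, and these figures are a description. No carrier had a sex difference by limma at an FDR of 5% (0 of 40, and 0 of all 26492 probes), with 1 carrier at an unadjusted p under 0.05, the glutamate carrier Slc25a22. Its female minus male log2 change was -0.56 ± 0.24 (limma adjusted p = 1). For Ucp3 the female change minus the male change was -0.15 ± 0.70 on the log2 scale (95% interval -1.59 to 1.28), a range that leaves room for a sizeable difference either way. A gene called in one sex was therefore not shown to differ between them.

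**Figure D3:**
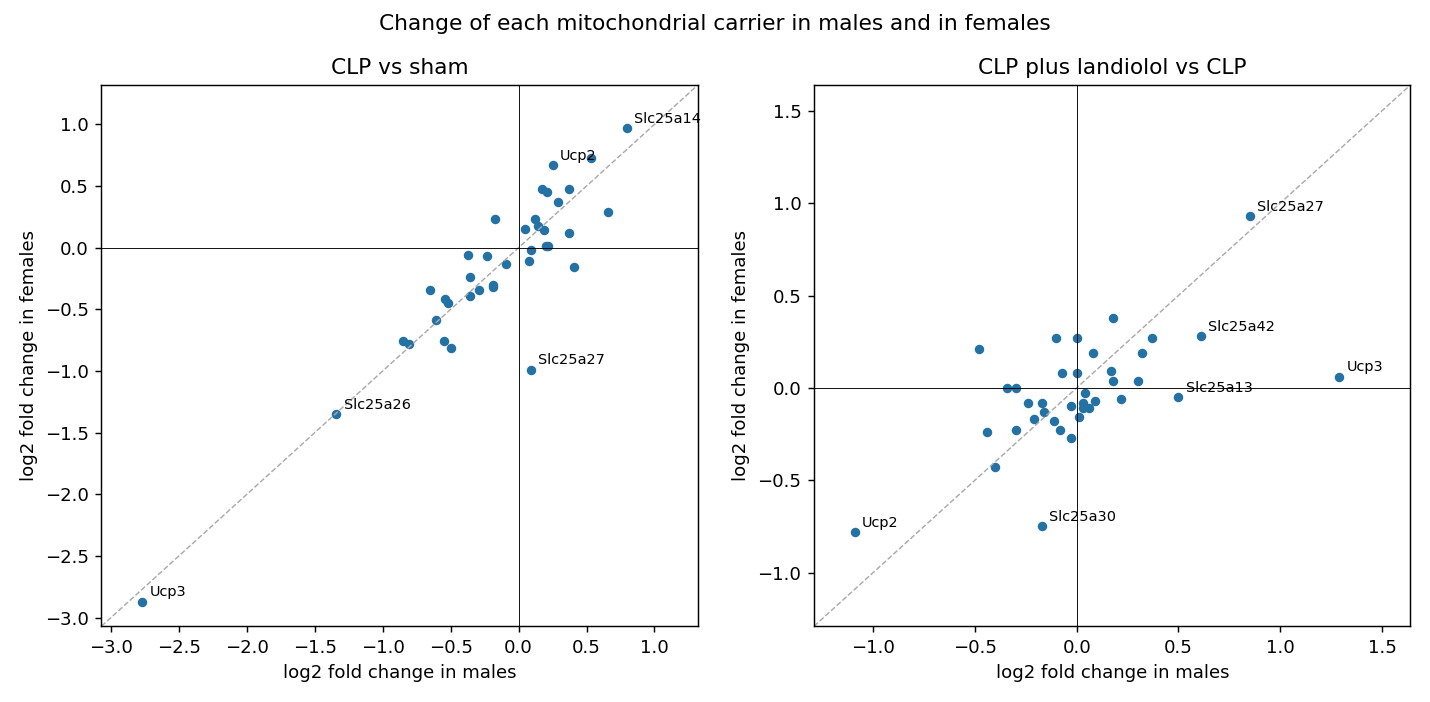
Log2 fold change in females against males for the carriers tested in both sexes, CLP over sham on the left and CLP plus landiolol over CLP on the right, with 1 point per gene and a dashed line of equal change. Counting 1 gene not drawn, 34 of 39 share the sign after CLP and 24 of 39 for landiolol, with Ucp3 at 1.29 in males and 0.06 in females.

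Landiolol after CLP gave no called carrier in either sex against CLP alone. At an FDR of 5%, the level used for this comparison, limma called 0 of 40 in males, where 1.56% of all probes were called, and 0 of 39 in females, where 0.0945% were. At an unadjusted p under 0.05 there were 7 carriers in males (14.8% of all probes) and 3 in females (9.34%), and SAM, a permutation-based test, called 1 in males (Slc25a42) and 0 in females. The median log2 change was 0 in males and -0.05 in females, beside -0.006 and 0.028 over all probes. The male count was 2 without CLP replicate 1 (Slc25a42 and Ucp2) and 1 without CLP replicate 2 (Slc25a42), and the female count was 1 without CLP replicate 5 (Slc25a30).

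Slc25a42 came nearest to a call. Its 6 male CLP plus landiolol arrays ran from 9.69 to 10.17 with a median of 9.84, above all 5 male CLP arrays, of which the highest was 9.65, and this was the 1 carrier without overlap (2.27% of all male probes did not overlap). The log2 difference was 0.61 ± 0.15 (95% interval 0.29 to 0.93, adjusted p = 0.0537), and it was 0.47 and 0.83 on the 2 slides. In females the arrays ran from 9.85 to 10.59 with a median of 10.09, which overlapped CLP, and no female carrier was without overlap (0, against 1.15% of all probes). The female difference was 0.28 ± 0.17 (-0.09 to 0.65, adjusted p = 0.662). The sex difference was -0.32 ± 0.23 and was not called (adjusted p = 0.968). These values are from the brighter of 2 Slc25a42 probes. The second was well above background on 5 of 5 male sham, 4 of 5 male CLP and 3 of 6 male CLP plus landiolol arrays, and it was not called.

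Ucp3 in male CLP plus landiolol arrays ran from 8.13 to 9.37 with a median of 8.63. Of the 5 male CLP arrays 4 lay below this range, and all 6 landiolol arrays lay below the lowest sham array. The log2 difference from CLP was 1.29 ± 0.38 (0.48 to 2.09), with an unadjusted p of 0.00376 from limma and an adjusted p of 0.113, and it was 0.68 and 2.1 on the 2 slides. In females the range was 6.47 to 8.78 with a median of 7.35, overlapping that of CLP, and the difference was 0.06 ± 0.52 (-1.05 to 1.17, adjusted p = 0.989). The female minus male difference was -1.22 ± 0.67 (-2.60 to 0.15, limma adjusted p = 0.968), so Ucp3 was not shown to respond differently by sex.

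Ucp2 was lower with landiolol in the estimate of each sex. The male CLP plus landiolol arrays ran from 9.27 to 11.54 (median 10.58) and the female ones from 10.76 to 13.27 (median 12.12), both overlapping CLP. The value of 9.27 was on male CLP plus landiolol replicate 5, the array with the lowest median signal before normalisation (49.16). The part of array signal was not tested. The log2 difference was -1.09 ± 0.35 in males (-1.85 to -0.34, adjusted p = 0.15) and -0.78 ± 0.56 in females (-1.97 to 0.41, adjusted p = 0.719). It was -1.83 and -0.09 on the 2 female slides. Slc25a30 had an unadjusted p of 0.00349 in females by limma, with a log2 difference of -0.75 ± 0.22 (adjusted p = 0.226), and Slc25a27, also named UCP4, was at 0.85 ± 0.43 in males and 0.93 ± 0.40 in females (adjusted p = 0.379 and 0.485). By slide Slc25a27 was at -0.14 and 2.17 in males and at 1.61 and 0.46 in females. Slc25a4 differed from CLP by 0 ± 0.21 in males and 0.08 ± 0.19 in females, and Slc25a20 by -0.03 ± 0.26 and -0.10 ± 0.23.

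**Figure D4:**
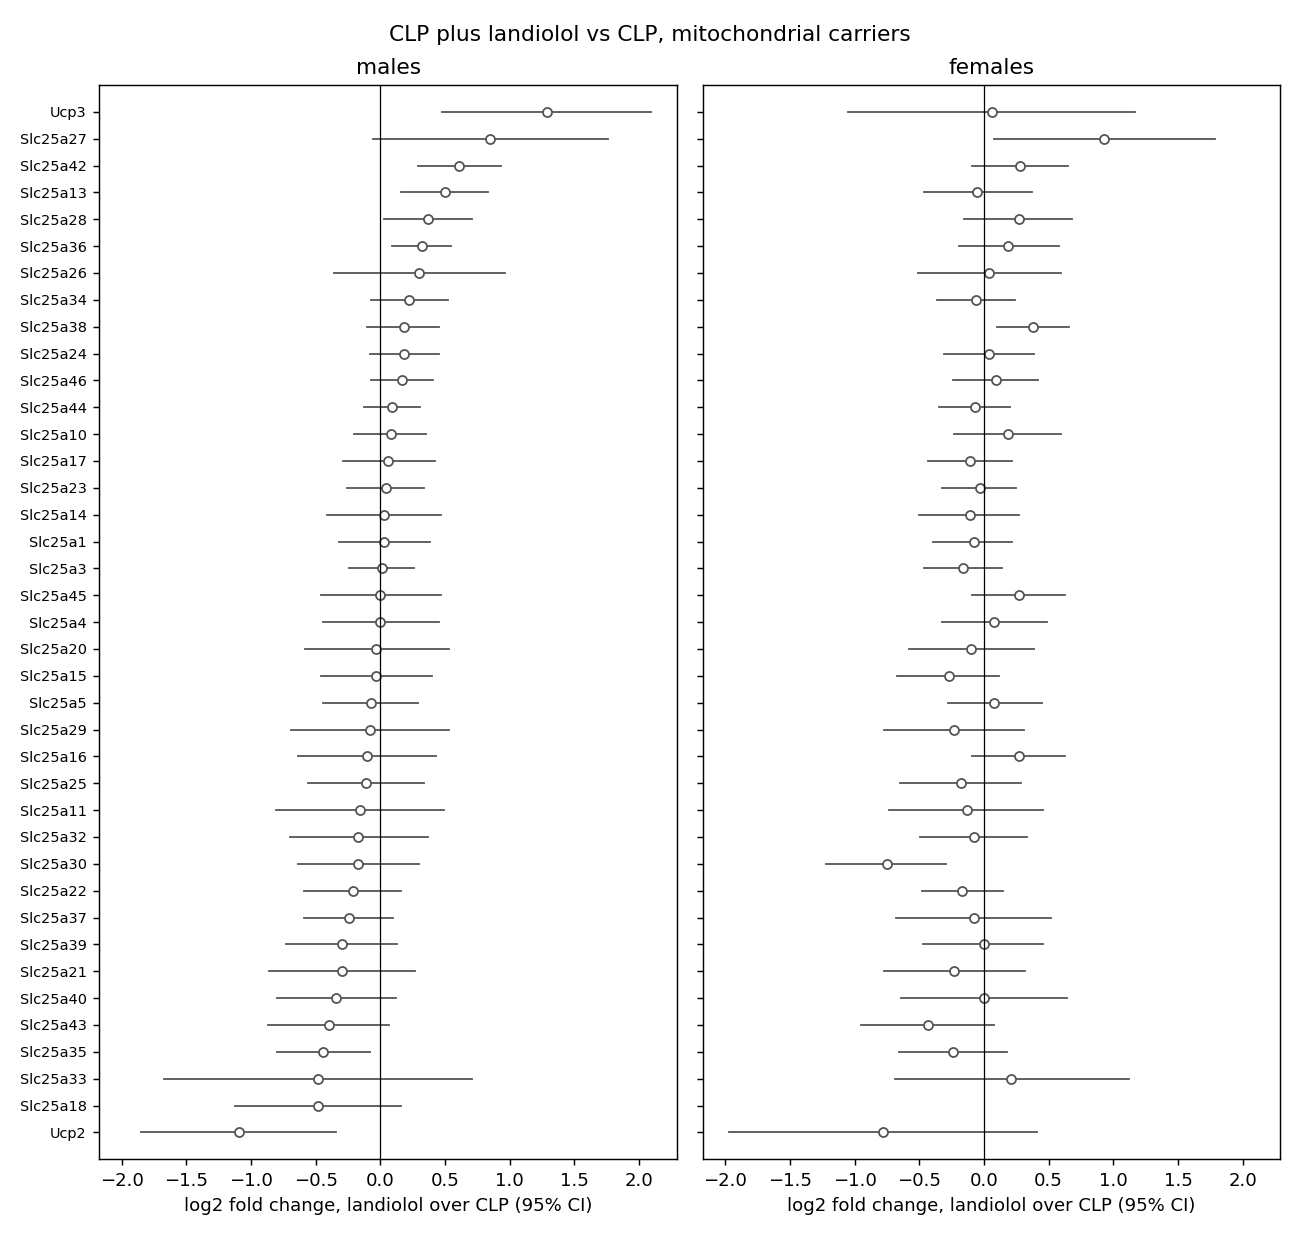
Log2 fold change of CLP plus landiolol over CLP for each carrier described, males on the left and females on the right, in the male order, with points for the estimate and bars for the 95% confidence interval, and open points because 0 genes were called. Ucp3 is at the top at 1.29 in males and Ucp2 at the bottom at -1.09.

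Against sham, the CLP plus landiolol group gave 6 called carriers of 39 in females (15.4%, against 5.25% of all probes) and 0 of 40 in males (4.15% of all probes). For this comparison the sexes were not tested against each other, so the counts show no sex difference. In females 2 were higher and 4 lower, beside 3% and 2.24% of all probes. In males 18 carriers had an unadjusted p under 0.05 (24.2% of all probes), and SAM called 4: Slc25a14, Slc25a15, Slc25a27 and Ucp3. In females 19 did (26.7% of all probes), and SAM called 8. The arrays did not overlap those of sham for 1 carrier in males and 7 in females, against 7.79% and 9.74% of all probes. These comparisons use the same sham arrays as those of CLP and are no independent evidence. The median log2 change was -0.14 in each sex, beside -0.002 and 0.001 over all probes. The male count was 4 without sham replicate 1, 1 without sham replicate 5 and 2 without CLP plus landiolol replicate 4, and the female count was 3 without sham replicate 2 or 4. On the slides every female sham array lay in row 1 and every female CLP plus landiolol array in row 2, and with a term for the row the female count was 0. In that fit the log2 changes shrank to -1.62 for Ucp3, -0.56 for Slc25a15, -0.73 for Slc25a30 and -0.81 for Slc25a26. Of 24 other settings, 11 ended the female call of Slc25a38, 9 that of Slc25a14, 5 that of Slc25a26 and 1 each those of Ucp3, Slc25a15 and Slc25a30.

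In females Ucp3, Slc25a26, Slc25a30 and Slc25a15 were lower and Slc25a14 and Slc25a38 were higher. Ucp3 was at -2.82 ± 0.52 (adjusted p = 0.00241), and in males at -1.48 ± 0.38 (adjusted p = 0.0206, not called), with no overlap with sham in either sex. Slc25a26 ran from 7.46 to 8.9 in female CLP plus landiolol arrays (median 8.52), below all sham arrays, and was at -1.31 ± 0.26 (adjusted p = 0.00385). In males it ran from 7.86 to 9.24 (median 8.2), overlapping sham, and was at -1.05 ± 0.31 (adjusted p = 0.0438).

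Slc25a30 (chr15:56654732-56654791, rn4) read 11.94, 12.08, 11.32, 11.74 and 12.2 in female sham and 11.56, 11.75, 11.54, 11.86 and 10.48 in female CLP arrays. The female CLP plus landiolol arrays ran from 10.49 to 10.92 with a median of 10.67, below all sham arrays and below all CLP arrays but replicate 5. The log2 change from sham was -1.18 ± 0.22 (adjusted p = 0.00255), a second probe was at -1.07 (adjusted p = 0.00525, called), and the third was at -0.92 (adjusted p = 0.023, not called). In males Slc25a30 read 11.47, 11.83, 11.33, 12 and 11.28 in sham, 11.22, 11.37, 11.05, 10.66 and 10.91 in CLP and 10.31 to 11.67 (median 10.77) in CLP plus landiolol arrays, which overlapped sham, and the change from sham was -0.71 ± 0.22 (adjusted p = 0.0542).

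Slc25a38, which imports glycine for heme synthesis (chr8:125097009-125097068, rn4), read 9.69, 9.2, 9.49, 9.25 and 9.43 in female sham and 9.39, 9.8, 9.48, 9.8 and 9.76 in female CLP arrays. The female CLP plus landiolol arrays ran from 9.72 to 10.2 (median 10.06), above all sham arrays, and the change from sham was 0.61 ± 0.13 (adjusted p = 0.00684). In males it read 9.02, 9.4, 9.54, 9.32 and 9.58 in sham, 9.25, 9.75, 9.79, 9.41 and 9.28 in CLP and 9.55 to 9.79 (median 9.7) in CLP plus landiolol arrays, with a change from sham of 0.30 ± 0.13 (adjusted p = 0.16).

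Slc25a14 ran from 10.01 to 10.97 (median 10.34) in female CLP plus landiolol arrays, above all sham arrays, with a change of 0.86 ± 0.18 (adjusted p = 0.00601). In males it ran from 9.89 to 10.83 (median 10.27) and the change was 0.83 ± 0.21 (adjusted p = 0.0178, not called). Slc25a15 was at -1.03 ± 0.19 in females (adjusted p = 0.00195) and -0.88 ± 0.20 in males (adjusted p = 0.0117). Slc25a45 ran from 6.67 to 7.58 (median 6.94) in males and 6.63 to 7.17 (median 7.03) in females, with changes of -0.50 ± 0.22 and -0.53 ± 0.17 (adjusted p = 0.172 and 0.0496).

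The levels of Slc25a4 and Slc25a20 in the CLP plus landiolol group overlapped sham in both sexes. Slc25a4 ran from 13.69 to 14.81 (median 14.4) in males and 14.46 to 14.8 (median 14.71) in females, with changes from sham of 0.10 ± 0.21 and 0.06 ± 0.19. Slc25a20 ran from 11.94 to 13.32 (median 12.84) in males and 12.17 to 12.98 (median 12.53) in females, with changes of -0.22 ± 0.26 and -0.40 ± 0.23. Slc25a3 was at -0.48 ± 0.14 in females with no overlap with sham, and was not called by limma (adjusted p = 0.0343) but was by SAM.

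Genes that work with the carriers were also counted, from a list of 52 of which 50 were tested: the pyruvate carrier, the calcium uniporter, porins, enzymes of the carnitine, malate-aspartate and glycerol phosphate shuttles, the machinery that imports carriers, and transcriptional regulators of mitochondrial genes. The list also held 2 carrier-like proteins, Mtch1 and Mtch2, which gave 0 calls after CLP and are part of the counts and medians. After CLP 7 of the 50 were lower in males and 8 in females and 0 were higher, with medians of -0.20 and -0.26. Among all probes 3.94% were lower in males and 1.82% in females. In both sexes 6 were called. The regulators were Ppargc1b, a coactivator of mitochondrial genes (-2.65 ± 0.28 in males, -1.70 ± 0.33 in females), Ppara, the fatty acid receptor of the PPAR family (-1.27 ± 0.20 and -0.92 ± 0.14), and Esrra, an oestrogen-related receptor (-0.67 ± 0.16 and -0.86 ± 0.17). The others were Gpd2 of the glycerol phosphate shuttle (-1.08 ± 0.11 and -1.28 ± 0.24), Slc22a5, the carnitine transporter of the plasma membrane (-0.65 ± 0.14 and -0.90 ± 0.18), and Timm8a1 of the carrier import machinery (-0.74 ± 0.15 and -0.98 ± 0.18). Tomm22, a receptor for import, was called in males (-0.43 ± 0.10) and was at -0.48 ± 0.11 in females (adjusted p = 0.0116). Timm10, an import chaperone, was called in females (-0.59 ± 0.12) and was at -0.49 ± 0.15 in males (adjusted p = 0.0339). Ppargc1a, the best known coactivator of mitochondrial biogenesis, was called in females (-1.54 ± 0.28) and was at -1.03 ± 0.47 in males (adjusted p = 0.163). The sexes were not tested against each other for these genes. The pyruvate carrier (2 genes tested), the calcium uniporter (8) and the porins with the translocator protein (5) gave 0 calls by limma, with 2, 2 and 1 at an unadjusted p under 0.05 in males and 2 of each in females.

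Landiolol against CLP gave 0 called partner genes by limma in either sex (4 in males and 0 in females at an unadjusted p under 0.05, 1 and 0 by SAM), with medians of 0.03 in males and -0.05 in females. Against sham 4 were lower in males, where 4.15% of all probes were called, and 5 in females, where 5.25% were called and 2.24% were lower. Ppargc1b, Ppara and Timm8a1 were called in both. Over the alternatives these counts ran from 3 to 7 in males and from 0 to 14 in females, with 0 in the fit with a term for slide row. Over the alternatives, which were chosen for this list after seeing the data, the count after CLP was 3 to 11 in males and 2 to 9 in females.

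**Figure D5:**
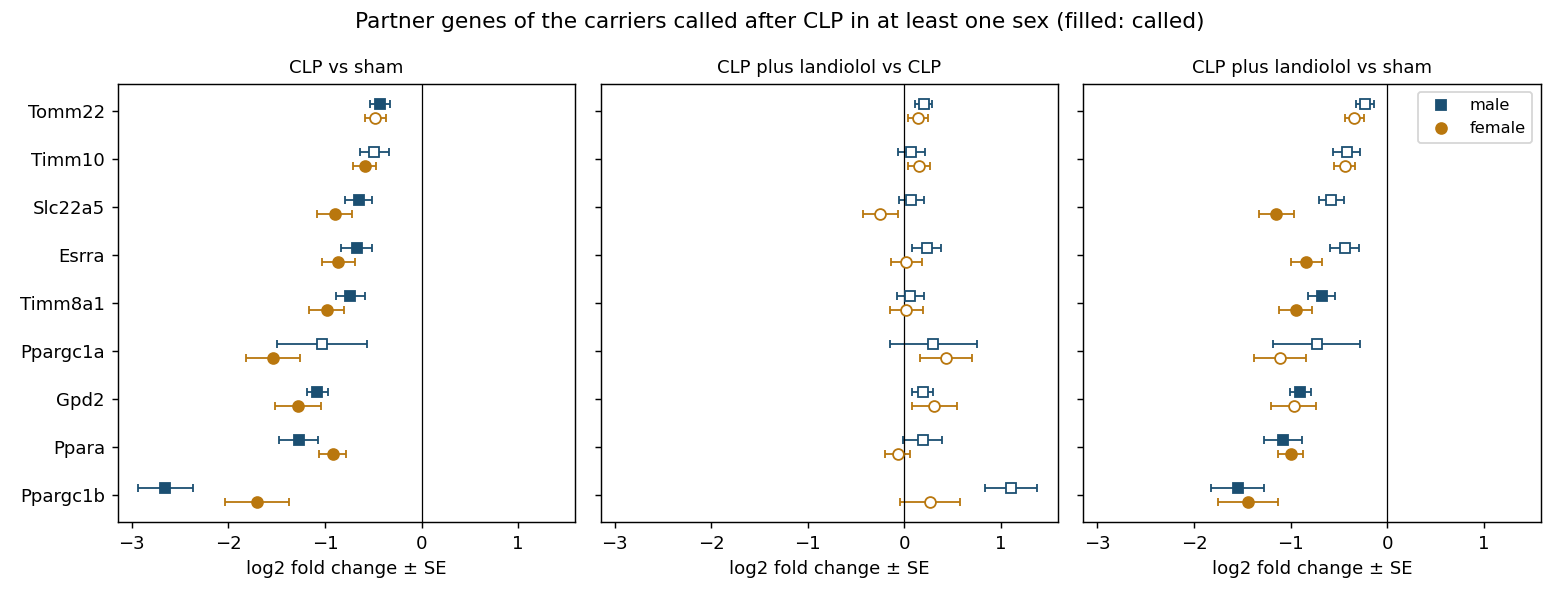
Log2 fold change with SE bars of the 9 partner genes called after CLP in at least 1 sex, for the 3 comparisons, with squares for males, circles for females and filled symbols for called genes. After CLP all lie below 0, while for landiolol over CLP none is filled.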

How the data were processed

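Total RNA of 32 left ventricles was hybridised to Agilent rat arrays in 1 colour. The authors deposited scanner intensity values for 62976 spots per array, made with Agilent Feature Extraction 10.5 per the submitters' processing notes, and their own normalised and filtered log2 values (38875 rows). Every array column was mapped to its sample. From the deposited intensity, the background-subtracted signal was taken to log2, spots of a probe were averaged, and values were quantile-normalised over the 16 arrays of each sex (R 4.3.3, limma 3.58.1). A probe was kept where 1 or more groups of the sex had it well above background on 80% or more of their arrays. It was tested with limma (lmFit, eBayes) on all 3 groups, adjusted by Benjamini-Hochberg over all probes, at an FDR of 1% against sham and 5% for landiolol against CLP. For sex differences all 32 arrays were quantile-normalised together and fitted as 6 groups. Probes that met the filter in a group of either sex were taken, at an FDR of 5%. The filter left 57 carrier probes in males and 56 in females. A gene stood by its brightest probe. The 8 genes not tested in either sex were Slc25a2, Slc25a31, Slc25a41, Slc25a47, Slc25a48, Slc25a53, Slc25a54 and Ucp1. Within a sex, Slc25a18 was tested in males only, and it was also part of the tests of sex differences.

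Genes were named with statistics where they were called in any comparison or listed for their role (Slc25a3, Slc25a4, Slc25a5, Slc25a11, Slc25a12, Slc25a20, Slc25a28, Slc25a37 and the uncoupling proteins). Array values were given for the 3 largest called rises and falls per comparison and for Slc25a4, Slc25a20, Ucp2 and Ucp3. Other genes were named after their values were seen. One member is counted throughout but is not reported singly here or drawn. The members, gene lists and rules were chosen with earlier results of these data known. Alternatives were other scaling, background correction and filters, slide, slide row or day as a term, a trended prior, array weights, the deposited table, another FDR, SAM with 100 permutations, and each array left out. The day was inferred from the digits in the sample titles, read as a date, and no label says what that date marks. Each array held 1 rat, and the replicate numbers follow accession order. Whether the authors added an offset before log2 is unknown, and their table served as an alternative. Probe positions are those of the scanner files (rn4), with no gene models of that build used here, so exon or UTR is not given.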

Additional observations from a re-analysis of the deposited data

Results flagged for a closer look

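Among the 18 named genes, 7 of 108 sets of arrays (1 gene in 1 group) held an array that stood apart from the others by Dixon's criterion, which chance meets in about 1 of 20 groups. Replicate 5 of the female CLP group was the low array for 3 genes: Slc25a3 at 15.27 (the next array at 15.79), Slc25a30 at 10.48 (11.54) and Slc25a46 at 10.96 (11.5). Slc25a28 was high in male sham replicate 1, at 13.17 (12.54), and in male CLP replicate 1, at 13.08 (12.78). In the female sham group Slc25a45 was low in replicate 3, at 6.96 (7.56), and Ucp3 in replicate 5, at 9.13 (10.47).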

How the results depend on the processing

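The Ucp3 and Slc25a46 calls of the male CLP against sham comparison held in all 23 alternatives run for each, and the counts of sex differences were 0 in every alternative. The other counts of called carriers moved, and the cause was not tested. With an FDR of 5%, male CLP against sham went from 5 to 10, female CLP against sham from 4 to 10, male landiolol against sham from 0 to 7 and female landiolol against sham from 6 to 13. With only the 2 groups compared, which leaves fewer arrays, they gave 3 for male and 1 for female CLP against sham and 1 for male landiolol against sham. Array weights gave 8 for male CLP against sham, 2 and 1 for male and female landiolol against CLP, and 7 for male landiolol against sham. With slide row as a term, female CLP against sham gave 1 and female landiolol against sham 0, where sham and landiolol arrays lay in different rows. Without the background filter female CLP against sham gave 2. For male landiolol against CLP, normexp background correction, the trended prior and SAM each gave 1. For male landiolol against sham, normexp gave 2, the trended prior 1, the values of the authors 2 and SAM 4. Leaving out 1 array gave 3 to 6 and 0 to 3 for male and female CLP against sham, 0 to 2 and 0 to 1 for landiolol against CLP, and 0 to 4 and 3 to 6 for landiolol against sham. Fold changes were followed over the alternatives for genes called in either sex in the same comparison. Ucp2 was also followed in the landiolol comparisons, and Ucp3 in male landiolol against CLP. Among the values followed, 1 changed sign: Ucp2 in female landiolol against sham, -0.11, was 0.87 with the row as a term, 0.06 without female sham replicate 4, and 0.10 and 0.14 without CLP plus landiolol replicates 2 and 5 (-0.37 to 0.14 over all arrays left out), and it was called in none of these. The count of partner genes was 0 to 14 for female landiolol against sham. Signal over background limits the 8 untested genes. No paired analysis was possible because the labels carry no replicate numbers.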
